A study of Homo sapiens with 2 samples.

Results

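The genes described here are the human genes with a LINC symbol, the letters LINC followed by digits only, which name long intergenic noncoding RNAs. Cap analysis of gene expression (CAGE), which sequences tags from the capped 5′ ends of RNAs, was performed in the human hepatoma line PLC/PRF/5. One library came from non-treated cells (0 µg/ml) and the other from cells kept for 6 h in medium with 3 µg/ml of M2BPGi, the Mac-2 binding protein glycan isomer. The members were chosen by their measured values, the mean of both libraries of at least 0.5 CPM (tags scaled to the size of the library), so their levels are a description with no test. Of 47 LINC genes among the 16424 genes listed, 40 were members. The libraries held 24040209 tags from non-treated and 24862941 tags from M2BPGi-treated cells, of which 22630317 and 23471991 were on listed genes. As each condition had 1 library, no difference has a replicate check, and every interval covers counting error only.

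Long intergenic noncoding RNAs are transcripts of RNA polymerase II that lie between protein-coding genes, and most of them are capped, spliced and polyadenylated like mRNAs. Some act on chromatin or on neighbouring genes, others bind proteins or microRNAs in the cytoplasm, and many have no known function. Several genes first named LINC were later found to encode small proteins, and in hepatocellular carcinoma single LINC RNAs have been studied as promoters or suppressors of tumour growth.

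The symbol did not describe all members by a later annotation. Of the 40 members, 36 had their identifier in GENCODE v29, which typed 24 as lincRNA, 4 as protein-coding and the others as pseudogenes, processed transcripts, sense-overlapping, antisense or bidirectional transcripts. The protein-coding members were LINC00116 (now MTLN), LINC00493 (SMIM26), LINC00085 (SPACA6) and LINC00087 (SMIM10L2B). In all, 9 members carried another symbol there, among them LINC00657 (NORAD), LINC00152 (CYTOR), LINC00263 (OLMALINC) and LINC00338 (SNHG20). Of 37 members located in that annotation, 29 overlapped no protein-coding gene, 8 overlapped at least 1, and 23 were both of the lincRNA type and free of such an overlap. The 10 hepatocyte markers examined had tags in both libraries, with a summed level of 2457 CPM without and 1769 CPM with M2BPGi. Most of the sum came from FGB (950.03 and 623 CPM), AFP (695 and 566 CPM) and SERPINA1 (671 and 455 CPM). APOB, ALB (8.82 and 7.04 CPM), TF, APOA1 and TTR (3.62 and 2.49 CPM) were lower than the macrophage marker CD68 (21.2 and 20.5 CPM). Of 7 markers of other liver cells, 3 were listed, with PTPRC at 0 in both libraries, COL1A1 at 0.67 and 0.76 CPM, and CD68. Of the hepatocyte markers, 8 were lower and 2 were higher with M2BPGi, HNF4A (39.1 and 43.8 CPM) and APOA1 (4.37 and 4.63 CPM). The part of the hepatocyte sum in the results below was not tested.

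The levels of the members spread widely. The highest mean was that of LINC00657 and the lowest that of LINC00087, and 15 members had a mean of at least 10 CPM, 15 a mean of 2 to under 10 CPM and 10 a mean under 2 CPM. CAGE counts 1 tag per capped end, so these levels do not depend on transcript length. Summed over the 40 members, the level was 916 CPM in non-treated cells (95% Poisson interval 904 to 928) and 907 CPM in M2BPGi-treated cells (895 to 919), and the log2 ratio of the sums was -0.01 (-0.04 to 0.01). Without LINC00657 alone, it was 0.04 (0.01 to 0.07). The interval of the full ratio includes no difference, and no other single member was left out, so the sign is not tied to this gene. LINC00657, LINC00116 and LINC00493 made up 61.2% of the sum in non-treated and 63.9% in M2BPGi-treated cells. The summed level thus rested on a few genes.

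Near the threshold, the values were low and uncertain. The members just inside it were LINC00087 (0.46 CPM without and 0.93 CPM with M2BPGi), LINC00663 (0.54 and 0.97 CPM) and LINC00526 (1.21 and 0.48 CPM). Just outside it were LINC00478, the host gene of miR-99a, with 0.54 and 0.20 CPM, and LINC00094 with 0 and 0.04 CPM. The other 5 LINC genes outside, such as LINC00028, were at 0 in both libraries, where a count of 0 allows up to 0.125 CPM without and 0.121 CPM with M2BPGi. LINC00449, LINC00623, LINC00526 and LINC00087 were under 0.5 CPM in 1 of the libraries, so these 4 were members through the other library.

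**Figure D1:**
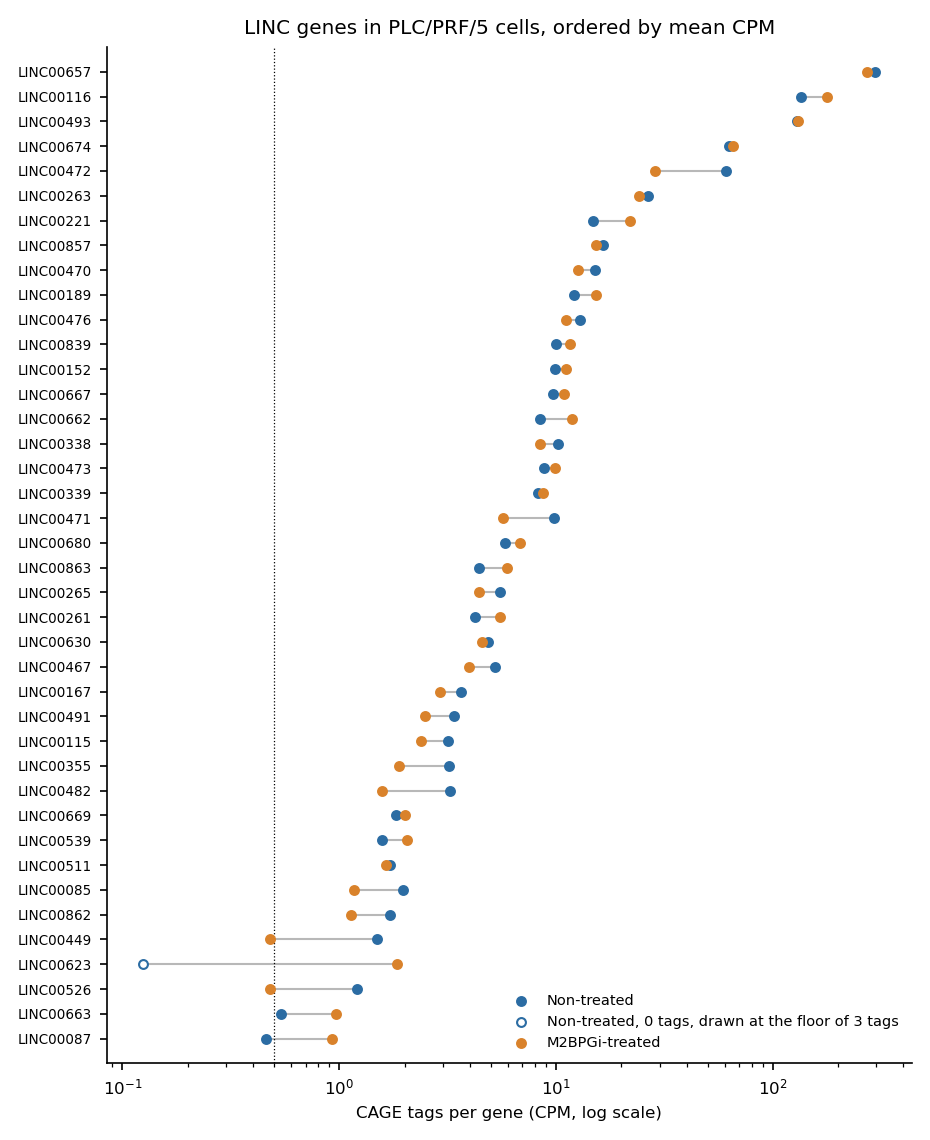
CAGE level of the 40 LINC genes in CPM on a log axis, ordered by mean level, with blue points for the non-treated library, orange points for the M2BPGi-treated library and a dotted line at the 0.5 CPM that chose the members. LINC00472 moved from 60.6 to 28.7 CPM among the higher genes, and LINC00623, at 0 in non-treated cells, is drawn at its floor of 3 tags.

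M2BPGi treatment was compared with no treatment gene by gene, to ask which LINC genes differed between the libraries. Log2 ratios, with the treated library over the non-treated one, were computed after adding 0.1 CPM to each value, so that differences of low genes are understated. They cover 14197 genes with a mean of at least 0.5 CPM. Of the 40 members, 1 was at least 2-fold higher, LINC00623, beside 0.528% of all genes. In the other direction 4 were at least 2-fold lower, LINC00472, LINC00482, LINC00449 and LINC00526, beside 1.53% of all genes. LINC00623, LINC00449 and LINC00526 were members through 1 library alone, so the threshold favours a large ratio in these genes. With a mean of at least 1 CPM, 0 of 35 members were at least 2-fold higher and 2 were lower, beside 0.386% and 1.18% of the genes with such a mean. Of all 40 members, 2 were at least 2-fold lower with a pseudocount of 0.5 CPM, 1 with a pseudocount of 1 CPM, and 3 with the libraries rescaled to a median of 0, which put LINC00482 at -0.95. The median log2 ratio of the members was -0.07, with quartiles of -0.38 and 0.25, and that of all genes was -0.06. The members went both ways, 19 higher and 21 lower.

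The share of genes past 2-fold depends on the level. With a mean of 0.5 to under 2 CPM, 3 of 10 members were past 2-fold in either direction, beside 10.5% of all genes at that level. With a mean of 2 to under 10 CPM it was 1 of 15 members, LINC00482, beside 3.05% of all genes. With a mean of at least 10 CPM it was also 1 of 15, LINC00472, beside 0.518%. These counts of 1 to 3 genes are too small to set the LINC genes apart from other genes of their level.

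For each gene, an exact binomial test set its tags in one library against those in the other, with p-values adjusted over the 14197 genes by Benjamini-Hochberg. The test speaks of these libraries, not of the conditions. It called 6 members higher in the M2BPGi-treated library, beside 20.3% of all genes, and 8 members lower, beside 28.0% of all genes. The members called higher were LINC00116, LINC00221, LINC00662, LINC00863, LINC00189 and LINC00623. Those called lower were LINC00657, LINC00472, LINC00471, LINC00470, LINC00355, LINC00482, LINC00449 and LINC00526. The other 26 members were not called. LINC00623, LINC00449 and LINC00526 were under 0.5 CPM in 1 library and passed the threshold through the other, which favours their calls. With a mean of at least 1 CPM, 5 of 35 members were called higher and 6 lower, beside 20.8% and 28.6% of the genes with such a mean. In all, 35.0% of the members and 48.3% of all genes were called. At a mean of 10 CPM and over, 7 of 15 members and 59.2% of all genes were called, and from 2 to under 10 CPM 4 of 15 and 30.4%. Below 2 CPM, 3 of 10 members and 16.2% of all genes were called, and these members were the 3 that passed through 1 library.

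**Figure D2:**
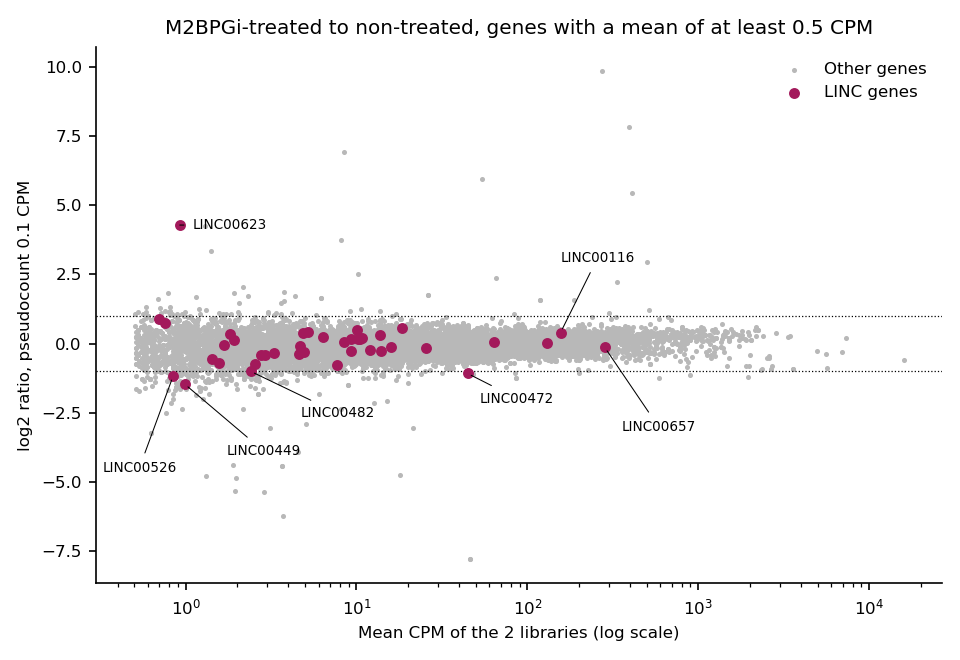
Log2 ratio between the treated and the non-treated library against the mean CPM on a log axis for 14197 genes, with the 40 LINC genes in dark red and dotted lines at 2-fold. Most LINC genes lie between the lines, and LINC00472 lies below them at a level where 0.518% of genes were past 2-fold.

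Among the LINC symbols now given to genes of small proteins, 3 of 11 on the list were members, and 1 of these was called, where 48.3% of all genes were. LINC00116 encodes mitoregulin, a small protein of the inner mitochondrial membrane that binds cardiolipin and takes part in lipid oxidation. It had 135 CPM without and 178 CPM with M2BPGi, a log2 tag ratio of 0.40 (95% Clopper-Pearson interval 0.34 to 0.47), and it rose (exact binomial test, adjusted p = 1.42e-32). It was the member with the most tags among those that rose. LINC00493, which encodes the small mitochondrial protein SMIM26, had 129 and 130.6 CPM (0.01, interval -0.06 to 0.09). It was nearly level between the libraries, with 3109 and 3247 tags beside the 3239 and 4430 tags of LINC00116. LINC00087, which encodes SMIM10L2B, had 11 and 23 tags, and its interval of -0.08 to 2.20 includes no difference.

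The promoter window of LINC00116, 250 bases before to 50 bases after its start, is shown because it belongs to the abundant member that rose. It is from RefSeq, build GRCh38.p14, chr2:110212498-110212797 on the minus strand, written 5′ to 3′, with its match to CCAAT in capitals, 227 bases before the start. The start of this gene in GENCODE v29 is 32873 bases away, and the values per gene do not show which start carried the tags.
LINC00116: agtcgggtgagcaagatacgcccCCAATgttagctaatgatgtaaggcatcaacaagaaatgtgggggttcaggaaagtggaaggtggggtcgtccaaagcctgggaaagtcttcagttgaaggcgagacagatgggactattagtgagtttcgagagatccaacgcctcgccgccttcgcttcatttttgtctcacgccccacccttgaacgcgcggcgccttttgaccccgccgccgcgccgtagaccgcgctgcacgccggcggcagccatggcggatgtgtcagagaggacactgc
The window holds no match to TATAAA or GGGCGG on either strand.

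Of the other well-studied LINC genes on the list, 3 of 5 were members. LINC00657 (NORAD) is an abundant cytoplasmic RNA that binds Pumilio proteins and helps to keep the genome stable. It had 297 CPM without and 270.5 CPM with M2BPGi, a log2 tag ratio of -0.13 (interval -0.18 to -0.09), and it fell (exact binomial test, adjusted p = 2.58e-07). The fall was small and rested on 7136 and 6725 tags, the most of any member. With the libraries rescaled to a median of 0, its log2 ratio was -0.08, outside that interval, so the interval covers counting alone. LINC00667 had 9.65 and 10.8 CPM and LINC00339 had 8.24 and 8.69 CPM, and neither was called.

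Of 24 genes on a list of LINC genes studied in liver cancer or other carcinomas, 5 were members and 1 of these was called, again beside 48.3% of all genes. The list is not complete, and LINC00472, LINC00355 and LINC00857 are outside it. LINC00662 had 8.40 CPM without and 11.8 CPM with M2BPGi, a log2 tag ratio of 0.49 (interval 0.23 to 0.76), and rose (exact binomial test, adjusted p = 0.000646). LINC00152 (CYTOR), an RNA raised in many carcinomas, had 9.86 and 11.1 CPM (0.17, interval -0.09 to 0.42). LINC00467 had 125 and 99 tags (-0.38, interval -0.78 to 0.01), and LINC00511 had 1.71 and 1.65 CPM. LINC00261, the neighbour of FOXA2 in endoderm and liver, was also the 1 member of 8 genes on the liver list. It had 4.24 and 5.51 CPM, and it was not called (exact binomial test, adjusted p = 0.0969).

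The member with the largest difference at a high level was LINC00472, an RNA studied as a tumour suppressor in breast and other carcinomas. It lies on chromosome 6, from 71344344 to 71420769 on the minus strand in GENCODE v29 (GRCh38), and was typed there as lincRNA. It had 60.6 CPM without and 28.7 CPM with M2BPGi, or 1456 and 714 tags. Its log2 tag ratio was -1.08 (interval -1.21 to -0.95), and it fell (exact binomial test, adjusted p = 5.06e-62). LINC00472 had the fifth highest mean of all members, and its level in the treated library was 0.474 times that in the non-treated one.

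At lower levels, LINC00471, LINC00355 and LINC00482 fell by the same test. LINC00471 had 9.78 and 5.71 CPM, a log2 tag ratio of -0.78 (interval -1.09 to -0.47, exact binomial test, adjusted p = 1.58e-06). LINC00482 had 3.24 and 1.57 CPM, or 78 and 39 tags (-1.05, interval -1.64 to -0.48), and with 0.1 CPM added it was on the 2-fold line. LINC00355, an RNA studied in bladder carcinoma, had 3.20 and 1.89 CPM (-0.76, interval -1.32 to -0.22). The intervals of these genes are wider than that of LINC00472, and each includes a 2-fold difference. LINC00491 and LINC00115, next in the order of low ratios among members with a mean of at least 2 CPM, had 3.37 and 2.49 CPM and 3.16 and 2.37 CPM and were not called.

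The promoter windows of LINC00472, LINC00471 and LINC00482 are shown as examples from the genes that fell, and these genes are not neighbours of each other. They are from RefSeq, build GRCh38.p14, written 5′ to 3′ on the strand of the gene, with matches to the searched motifs in capitals (a match on the other strand is seen as its reverse complement). The windows are chr6:71420696-71420995, chr2:231514328-231514627 and chr17:81309199-81309498, all on the minus strand.
LINC00472: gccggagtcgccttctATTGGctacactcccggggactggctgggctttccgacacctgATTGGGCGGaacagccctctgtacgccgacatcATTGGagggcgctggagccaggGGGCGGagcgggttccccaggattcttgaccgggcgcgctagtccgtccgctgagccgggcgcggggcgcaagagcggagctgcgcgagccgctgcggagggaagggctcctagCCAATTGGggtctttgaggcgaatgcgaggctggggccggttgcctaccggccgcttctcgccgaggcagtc
LINC00471: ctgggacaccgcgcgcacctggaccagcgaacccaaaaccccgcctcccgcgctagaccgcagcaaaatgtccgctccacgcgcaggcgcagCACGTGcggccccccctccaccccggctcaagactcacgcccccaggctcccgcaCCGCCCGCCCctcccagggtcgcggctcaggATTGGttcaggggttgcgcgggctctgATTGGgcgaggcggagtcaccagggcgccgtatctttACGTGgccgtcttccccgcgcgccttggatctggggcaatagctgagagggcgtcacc
LINC00482: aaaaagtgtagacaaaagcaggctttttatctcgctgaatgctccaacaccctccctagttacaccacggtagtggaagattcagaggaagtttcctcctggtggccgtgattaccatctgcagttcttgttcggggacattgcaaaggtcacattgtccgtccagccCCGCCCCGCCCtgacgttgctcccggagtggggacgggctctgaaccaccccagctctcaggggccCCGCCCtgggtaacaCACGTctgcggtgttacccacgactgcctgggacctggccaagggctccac
In the window of LINC00472, CCAAT matched 5 times, 1 on its own strand and 4 on the other strand, and GGGCGG matched 2 times. LINC00471 had 2 matches to CCAAT and 2 to GGGCGG on the other strand, 1 to CACGTG, which holds ACGTG on both strands, and a further match to ACGTG. LINC00482 had 3 matches to GGGCGG and 1 to ACGTG on the other strand, and none to CCAAT. Of the members with a window, GGGCGG was in 4 of 7 called lower, 2 of 5 called higher and 8 of 19 not called. It was in 44.5% of all windows, and the 4 include LINC00526, a member through the non-treated library alone. CCAAT was in 3 of 7, 2 of 5 and 8 of 19 of these members, and in 35.7% of all windows.

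LINC00449 and LINC00526 were the other members that fell at least 2-fold, and LINC00470 fell by less. LINC00470 and LINC00449 were named after their values were seen. LINC00470 had 15.2 CPM without and 12.6 CPM with M2BPGi (-0.27, interval -0.49 to -0.05, exact binomial test, adjusted p = 0.0340). LINC00449 had 36 and 12 tags (-1.63, interval -2.71 to -0.66), and LINC00526 had 29 and 12 tags (-1.32, interval -2.43 to -0.31). Both of these low genes were members through the non-treated library alone, so the threshold favours their calls, and their intervals are wide.

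**Figure D3:**
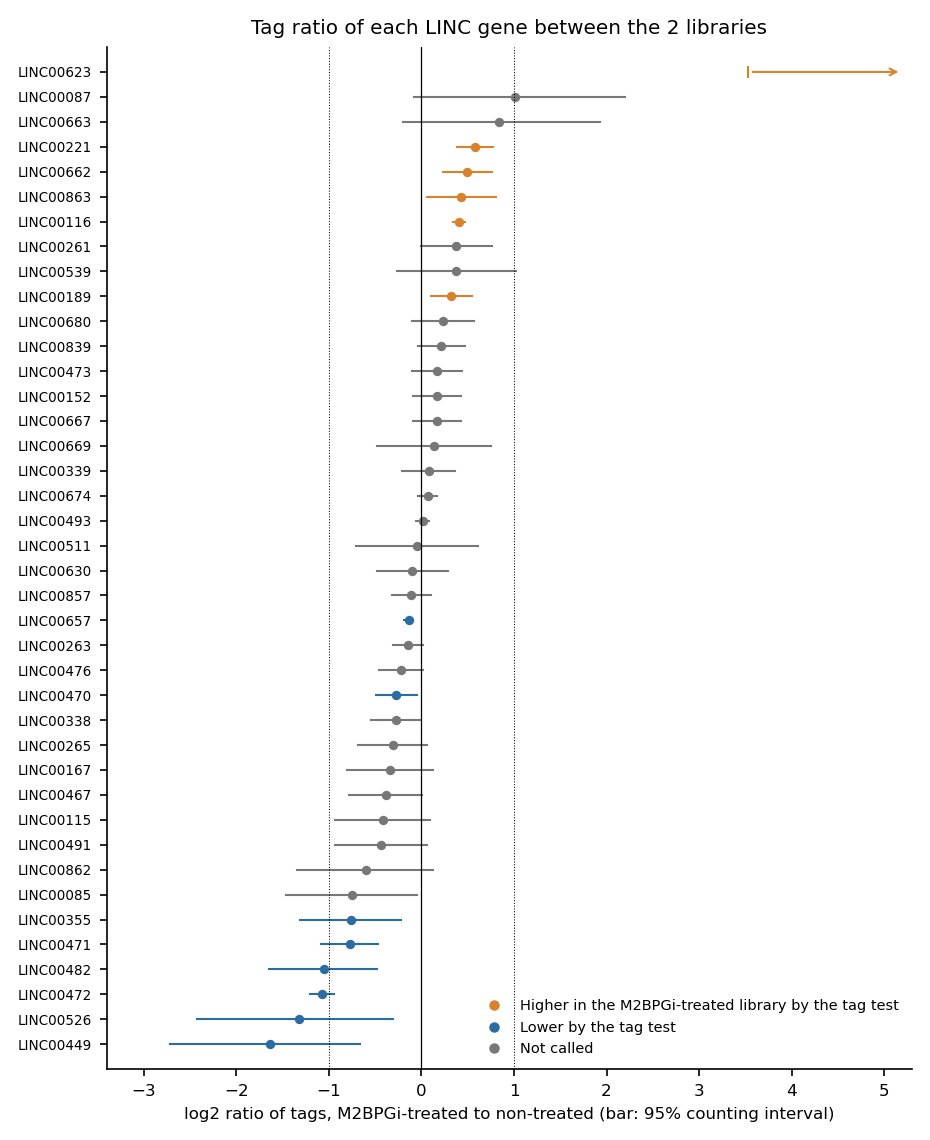
Log2 ratio of tags of each LINC gene between the M2BPGi-treated and the non-treated library with its 95% counting interval, ordered by log2 ratio, with orange for the 6 genes called higher, blue for the 8 called lower and grey for those not called. The interval of LINC00472, -1.21 to -0.95, is narrow beside that of LINC00449, -2.71 to -0.66, and LINC00623 has a lower bound only.

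Besides LINC00116 and LINC00662, the members called higher were LINC00221, LINC00863, LINC00189 and, as a member through the treated library alone, LINC00623. LINC00221 had 14.7 CPM without and 22.0 CPM with M2BPGi, a log2 tag ratio of 0.58 (interval 0.38 to 0.78, exact binomial test, adjusted p = 1.81e-08). This was the highest ratio among the members with a mean of at least 2 CPM. LINC00189 had 12.2 and 15.2 CPM (0.32, interval 0.10 to 0.55). LINC00863 had 4.41 and 5.95 CPM (0.43, interval 0.06 to 0.81), with an adjusted p of 0.0426 in the exact binomial test, near the threshold of 0.05. LINC00623, named after its values were seen, had 0 tags in non-treated and 46 tags (1.85 CPM) in M2BPGi-treated cells, at least 14.8-fold higher against a floor of 3 tags in the non-treated library. That fold takes the 46 tags as exact, and the 95% interval of the ratio begins lower, at a log2 value of 3.53. It was the 1 member with tags in a single library.

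The window of LINC00221 is shown as that of the member with this highest ratio. It is from RefSeq, build GRCh38.p14, chr14:106482189-106482488 on the plus strand, with matches on the other strand to GGGCGG and ACGTG in capitals, which overlap in part.
LINC00221: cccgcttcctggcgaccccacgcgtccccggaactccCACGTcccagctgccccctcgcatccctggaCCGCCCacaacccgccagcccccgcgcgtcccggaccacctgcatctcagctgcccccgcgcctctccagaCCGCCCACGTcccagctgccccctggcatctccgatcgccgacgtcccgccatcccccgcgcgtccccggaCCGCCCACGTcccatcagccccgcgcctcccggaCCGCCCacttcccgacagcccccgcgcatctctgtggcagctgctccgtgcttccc
It holds 4 matches to GGGCGG and 3 to ACGTG, none of them on its own strand. The identifier of LINC00221 was not in GENCODE v29, where the gene was located by its symbol alone.

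The remaining abundant members differed little between the libraries. LINC00674 had 62.5 and 65.6 CPM (0.07, interval -0.03 to 0.17). LINC00263 (OLMALINC), an RNA first described in oligodendrocyte maturation, had 26.7 and 24.1 CPM (-0.15, interval -0.31 to 0.02). LINC00857, an RNA studied in lung carcinoma, had 16.4 and 15.2 CPM (-0.11, interval -0.32 to 0.10). The intervals of these genes include no difference. The 12 members not named by the rule and not called had means from 1.42 to 12.0 CPM and log2 tag ratios from -0.75 for LINC00085 to 0.38 for LINC00539. The interval of LINC00085, -1.47 to -0.05, was below 0, and its adjusted p of 0.0588 in the exact binomial test missed the threshold. The interval of LINC00338, -0.55 to -0.01, was also below 0, with an adjusted p of 0.0835 in the exact binomial test.

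The genes beside the members were read from GENCODE v29, which is on GRCh38, while the labels name hg19 for the deposited values, so distances are those of the annotation. Of the 37 located members, 23 had a nearest protein-coding gene with a mean of at least 0.5 CPM, and 13 of these pairs had log2 ratios of the same sign. Across the 23 pairs Spearman's rho was 0.32 and Pearson's r was 0.29, a description of pairs from the same 2 libraries, which are not independent replicates. The protein-coding gene had the higher level in 17 pairs, and 0 of the 23 protein-coding neighbours were past 2-fold, where 0.295% of all protein-coding genes were at least 2-fold higher and 0.486% lower.

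Single pairs went together or apart. OGFRL1, nearest to LINC00472 with its start 131966 bases away, rose from 18.7 to 26.1 CPM while LINC00472 fell. SLC38A10, nearest to LINC00482 at 13701 bases, fell from 72.1 to 48.95 CPM together with it. TM9SF2, in which LINC00449 lies on the opposite strand, fell from 202 to 149.98 CPM. Both pairs of falling genes moved the same way, with smaller log2 ratios for the coding genes (-0.56 for SLC38A10 and -0.43 for TM9SF2). SCD, the stearoyl-CoA desaturase gene nearest to LINC00263, fell from 2282 to 1729.9 CPM, while LINC00263 itself was not called. LINC00189 overlaps BACH1 on the same strand, with starts 591 bases apart. BACH1 had 36.5 CPM in both libraries, so the rise of LINC00189 was not seen in the level of BACH1. As the assignment of tags to genes is not given, tags of such a pair may not be told apart. This limit holds for the 6 members that overlap a protein-coding gene on the same strand, LINC00863 among them. LINC00167, an RNA that starts 103 bases from PRDM10 on the opposite strand, had 3.66 and 2.90 CPM, and PRDM10 fell from 9.19 to 6.68 CPM.

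**Figure D4:**
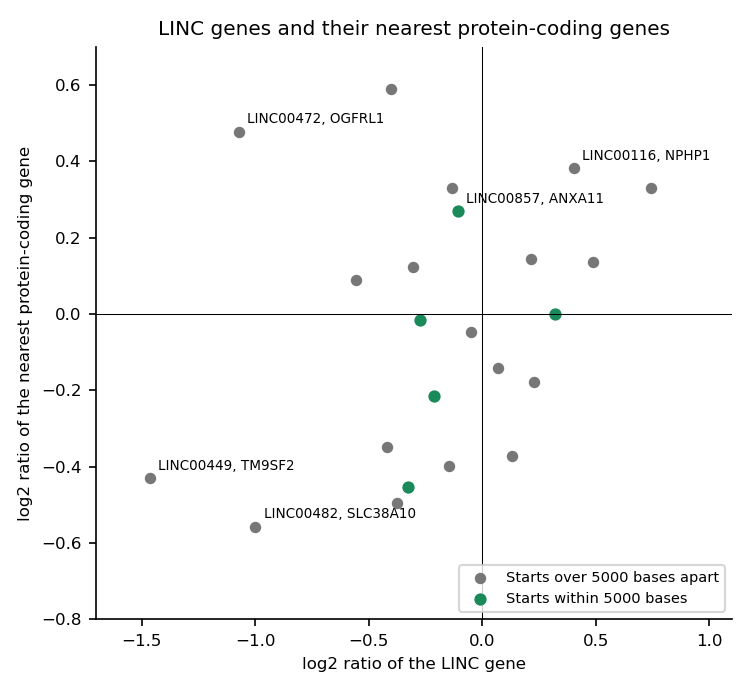
Log2 ratio of the nearest protein-coding gene against that of the LINC gene for 23 pairs, with green points for starts within 5000 bases and grey points for starts farther apart. LINC00472 and OGFRL1 lie in opposite directions (-1.07 and 0.48), and LINC00482 lies with SLC38A10 (-0.56) in the same one.

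LINC00526 and LINC00667 start close to each other on opposite strands of chromosome 18, and their promoter windows share 170 bases. LINC00526, a member through the non-treated library alone, fell from 1.21 to 0.48 CPM. LINC00667 had 9.65 and 10.8 CPM and was not called, and its interval of -0.09 to 0.42 includes no difference. The windows are shown because they overlap while the values of the genes differ in direction. They are from RefSeq, build GRCh38.p14, chr18:5237980-5238279 on the minus strand and chr18:5237850-5238149 on the plus strand, with matches to CCGGAAGT, GGGCGG and CCAAT in capitals.
LINC00526: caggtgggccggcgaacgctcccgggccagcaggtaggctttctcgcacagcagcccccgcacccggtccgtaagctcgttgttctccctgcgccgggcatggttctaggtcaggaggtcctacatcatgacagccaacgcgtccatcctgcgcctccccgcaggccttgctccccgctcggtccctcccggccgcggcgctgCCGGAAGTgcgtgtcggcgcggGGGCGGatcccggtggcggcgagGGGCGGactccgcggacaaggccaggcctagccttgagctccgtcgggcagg
LINC00667: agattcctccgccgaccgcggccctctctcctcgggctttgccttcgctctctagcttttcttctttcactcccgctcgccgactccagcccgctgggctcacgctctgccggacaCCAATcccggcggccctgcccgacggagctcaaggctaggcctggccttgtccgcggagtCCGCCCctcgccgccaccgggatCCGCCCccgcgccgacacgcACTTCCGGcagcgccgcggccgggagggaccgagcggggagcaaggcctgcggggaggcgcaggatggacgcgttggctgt
The single match to CCGGAAGT lies in the shared bases, 47 bases before the start of LINC00526 and 31 bases before that of LINC00667. Whether the 2 ratios differ from each other was not tested.

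Promoter windows were found for 31 of the 40 members and compared with all 27305 windows of the same length. For 29 of these members the gene also had a start in GENCODE v29, which was more than 1000 bases from the RefSeq start in 5. A match is a description, not a site or a cause. CCGGAAGT was in 6 of 31 members (19.4%), among them LINC00657, LINC00493, LINC00338 and LINC00476, and in 4.42% of all windows. The overlapping windows of LINC00526 and LINC00667 hold the same match, so the 6 windows are 5 separate places. CACGTG was in 12.9% of members and 7.41% of all, ACGTG, which is part of CACGTG, in 35.5% and 21.6%, and TGACGTCA in 6.45% and 1.97%. CCAAT was in 41.9% and 35.7%, GGGCGG in 45.2% and 44.5%, TGACTCA in 6.45% and 4.90%, and TATAAA in 6.45% of members and 12.0% of all windows. The median GC content was 60.0% in the members and 58.3% in all windows, and the median ratio of observed to expected CpG was 0.75 and 0.58. All members had to be expressed in these cells, while the other windows include genes that were not, and no test of these shares was made.

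For some members, tags could belong to a copy with nearly the same sequence at another place, since the handling of tags with several matches is not given in the sources used here. The first 500 nt of each transcript were searched for matches of at least 100 nt and 95% identity. Of the 37 members located in GENCODE v29, 26 had no such copy. Among them were LINC00472, LINC00471, LINC00482, LINC00449, LINC00526, LINC00662 and LINC00221, the last located by its symbol. The first 500 nt of LINC00152 matched MIR4435-2HG over 500 nt with 99.8% identity. Of its 4 copies, 2 were listed, AC017002.2 and AC068491.1, each with a match of the same length and identity. These 2 had the same values, which fell from 65.5 to 30.3 CPM, so the level of LINC00152 is uncertain. LINC00470, called lower, had such a match in 111 other genes, 57 of them listed, over at most 138 nt. LINC00491 had one in 59 other genes, 16 of them listed, over at most 334 nt. These matches are stretches of the searched 500 nt, not copies of the whole gene, and the level of LINC00470 is uncertain too. LINC00116 matched AC013268.1 over 110 nt with 100% identity, and none of its 4 copies was listed. LINC00657 matched LINC02228 over 164 nt with 96.95% identity, listed as RP11-549K20.1 with 9.15 and 10.8 CPM, far below LINC00657 itself. LINC00863 matched AL135925.1 over 500 nt with 97.2% identity. The identifier of LINC00623 was not in the annotation, and the gene of that symbol there, on the other strand, had 14 copies, LINC00869 over 500 nt with 99.6% identity as the closest, so the rise of LINC00623 is uncertain as well.

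Other noncoding genes were set beside the LINC genes. The 150 antisense genes, with symbols ending in AS and a number, had a median log2 ratio of -0.21, with 37 higher and 113 lower. A further 370 lincRNA genes of GENCODE v29, without a LINC symbol in the deposited values, had a median of -0.20, with 99 higher and 270 lower. A LINC symbol in GENCODE v29 was carried by 134 genes with a mean of at least 0.5 CPM. The 370 genes can include some of these. The 13 SNHG genes, which host small nucleolar RNAs, had a median of 0.13. The median was -0.07 in the LINC genes and -0.05 in the protein-coding genes. The share at least 2-fold lower was 10% in the LINC genes, 5.33% in the antisense genes and 7.57% in the further lincRNA genes. In the protein-coding genes, which had higher levels, it was 0.486%. The 10% is 4 genes, with LINC00482 on the 2-fold line and LINC00449 and LINC00526 members through the non-treated library alone. It was 2 of 35 LINC genes with a mean of at least 1 CPM and 1 of 40 with a pseudocount of 1 CPM. The share at least 2-fold higher was 2.5% in the LINC genes, which is LINC00623 alone. It was 0.667%, 0.541% and 0.295% in the other groups, in the same order. The differences between these medians and between these shares were not tested.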

How the data were processed

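CAGE libraries of non-treated and M2BPGi-treated PLC/PRF/5 cells were analysed, 1 of each. The authors removed ribosomal tags and those with unclear bases, mapped what was left, clustered tag starts with CAGEr and deposited CPM per gene, rounded to 2 decimals. The submitters' processing notes name BWA, HISAT2 and hg19, whereas the methods name a mouse genome. The gene identifiers are human. The assignment of tags to genes is not given in the sources used here.

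Tags were read back from the CPM: at the totals used, 100% of the values above 0 were whole tags within the rounding of 0.005 CPM. The totals rest on the smallest value above 0 being 1 tag, the step at which 254 genes of the non-treated and 214 of the treated library lay. A tag was worth 0.0416 CPM without and 0.0402 CPM with M2BPGi. The rounding alone reaches 0.12 of a tag, and 83.2% and 80.4% of the values were within 0.1 of a whole tag. All tag counts, p-values and intervals depend on these totals. Log2 ratios used a pseudocount of 0.1 CPM and a mean of at least 0.5 CPM. Each gene's tags were compared by an exact two-sided conditional binomial test with Benjamini-Hochberg adjustment (threshold 0.05), which called 2875 genes higher and 3976 lower. Ratio intervals are 95% Clopper-Pearson intervals. The computation recovered the totals of simulated data, but not when genes of few tags were left out of them. Copies of the first 500 nt of transcripts (100 nt or more, identity of 95% or more) were searched with BLAST+ 2.17.0 in GENCODE v29. Python 3.11.15, scipy 1.17.1, pandas 2.3.3 and matplotlib 3.10.9 were used.

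The named genes are the 8 members with the highest mean, the 6 highest and 6 lowest log2 ratios among members with a mean of at least 2 CPM, all members of the lists, and the 3 LINC genes on each side of the threshold. Of the genes just outside, the third was tied at 0 with others. Other genes were named with their values in view. The members and lists were chosen with earlier results of these data known. Alternatives were other pseudocounts, filters, a rescaling, a fold of 1.5 and other choices of members.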

Additional observations from a re-analysis of the deposited data

How the results depend on the processing

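No paired analysis was possible because the conditions share a single replicate number, and for the same reason no library was left out. The TMM rescaling and the edgeR exact test with an assumed variation of 0.2 were planned and were not run. The reason was that not all values were whole at a tolerance of 0.1 of a tag, which the rounding alone exceeds. The exact binomial test used the same tags, so no test here allows for variation beyond counting. The number of LINC genes at least 2-fold higher was 1. It was 0 with a mean of at least 1 or 2 CPM, 0 among members that overlap no protein-coding gene, and 3 at a fold of 1.5. The settings with 0 leave out LINC00623. In the setting on overlap, it was left out because it was not located in the annotation, so its overlap is not known. The number at least 2-fold lower was 4. It was 1 with a pseudocount of 1 CPM, 2 with one of 0.5 CPM, 2 with a mean of at least 1 or 2 CPM and 7 at a fold of 1.5. Over all genes, 75 were higher and 217 lower, against 34 and 63 with a pseudocount of 1 CPM, 39 and 110 with one of 0.5 CPM, 40 and 113 with a mean of at least 2 CPM, and 399 and 989 at a fold of 1.5, and 131 were higher without a filter. Low genes lose most of their ratio to a larger pseudocount, a stricter filter leaves fewer genes, and a lower fold admits more. In alternatives chosen after seeing the data, the 134 members by their symbol in GENCODE v29 gave 2 higher and 8 lower, and the members without a near-identical copy gave 0 higher. The median log2 ratio of the members stayed negative under the alternatives run, between -0.13 and -0.02, the latter with the median of all genes set to 0. The summed level without LINC00657 was 619 CPM without and 636 CPM with M2BPGi, so the small difference of the sums changed direction, with a log2 ratio of 0.04 in place of -0.01. Of 50 values of 25 named members under an alternative, 49 were within the counting interval. LINC00657 moved outside it, to -0.08 after rescaling, and LINC00511, which was not called, changed sign. Depth limits the low members most, and no comparison of the conditions has replicates.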
